A study of Danio rerio with 2 samples.

Results

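Muscle transcripts of 1 kind, the genes myl13 (ENSDARG00000042245), tnni1c (ENSDARG00000042559), tnnt2e (ENSDARG00000045822) and myoz2 (ENSDARG00000037266), were followed through every well of a zebrafish macrophage sort. They are 4 of the 22342 genes in the tables, and they were picked because their UMIs had stood higher in mCherry- than in mCherry+ wells of these same plates. Their difference between the gates is therefore given as a description, with no test. A UMI is a molecular tag that counts 1 captured transcript.

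The cells came from dissociated tails of embryos at 3 dpf (days post fertilization) of the line mpeg1:EGFP; runx1+23:mCherry. In this line the mpeg1 promoter marks macrophages with EGFP, and the runx1+23 enhancer marks hematopoietic stem and progenitor cells (HSPCs) with mCherry. EGFP+ cells that also carried mCherry, as macrophages do after taking up HSPC material, went into wells 1 to 192 of each of 2 SORT-seq plates, and EGFP+ mCherry- cells went into wells 193 to 384. By design the gates differ in mCherry, and also in well number, since each gate had the same wells on both plates. Gate and well position therefore cannot be told apart. All cells carry both transgenes. The labels do not say whether the plates came from separate embryos, so any p-value measures only the spread between these 2 plates, which may be technical.

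Skeletal muscle shortens when myosin heads pull on actin. Myosin light chains sit on the neck of the myosin head, and myl13 encodes one of them. Troponin gates the thin filament by calcium: troponin I holds the filament off (tnni1c), troponin T ties the complex to tropomyosin (tnnt2e) and troponin C binds the calcium. Myozenins, also called calsarcins, are Z-disc proteins that bind alpha-actinin and the phosphatase calcineurin, and in mammals myozenin 2 is the form of heart and slow muscle. The zebrafish tail holds a superficial layer of slow fibers and a deep mass of fast fibers, and each type uses its own paralogs of these proteins. Parvalbumins buffer calcium, and pvalb2 is a parvalbumin of fast muscle.

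Of the 768 wells, 534 held at least 500 UMIs and 200 genes and were kept, namely 143 mCherry+ and 151 mCherry- wells on plate 1 and 123 mCherry+ and 117 mCherry- wells on plate 2. Median depth of the kept wells was between 7934 and 10839 UMIs per gate and plate. The plates use the same 384 well barcodes. No doublet caller was run. Levels are in CPM, counts per 1e6, that is the UMIs of a gene scaled to a fixed total of the well or of the summed wells, without spike-ins.

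The 4 genes sat almost entirely in 3 wells, all of them mCherry-. These 3 wells held 93.7% of the 3720 UMIs of the 4 genes in the 768 wells. By gene, the share was 94.0% for myl13, 92.1% for tnni1c, 93.2% for tnnt2e and 89.7% for myoz2. Wells with at least 10 UMIs of the 4 genes together are called myl13-rich here, and no well lay near this threshold. The 3 wells above it had 633, 1134 and 1718 UMIs, and the highest of the other 765 wells had 5.

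**Figure D1:**
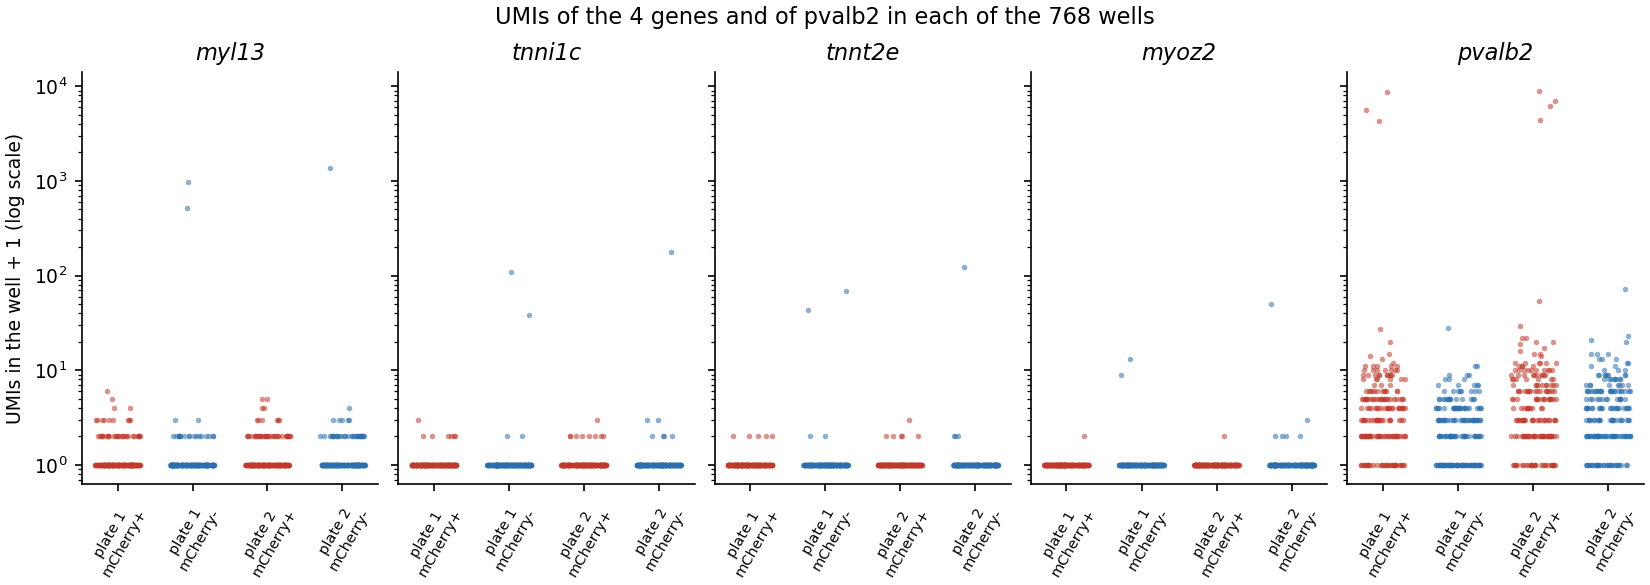
UMIs of myl13, tnni1c, tnnt2e, myoz2 and pvalb2 in each well (vertical axis, UMIs + 1 on a log scale) by gate and plate, 1 point per well, mCherry+ wells in red and mCherry- wells in blue. The 4 genes reach 10 UMIs together only in 3 mCherry- wells, and pvalb2 reaches 1000 UMIs only in 7 mCherry+ wells.

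Well 197 of plate 1 held 519.5 UMIs of myl13, 37.2 of tnni1c, 68.6 of tnnt2e and 8 of myoz2, with 4 of pvalb2. Well 315 of plate 1 held 970.3 UMIs of myl13, 109 of tnni1c, 42.2 of tnnt2e and 12 of myoz2, with 8 of pvalb2. Well 253 of plate 2 held 1368 UMIs of myl13, 179 of tnni1c, 122 of tnnt2e and 49.3 of myoz2, with 20 of pvalb2. The fractions come from the collision correction that the deposited values carry. All 4 genes were thus present in each of the 3 wells, and in no other well.

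Together the 4 genes made up 23372 CPM in well 197, 48925 CPM in well 315 and 57409 CPM in well 253. The light chain myl13 alone reached 19175, 41864 and 45715 CPM in the same wells. The wells were 27095, 23177 and 29921 UMIs deep, above the median of 8747 UMIs of the 524 kept wells that were neither myl13-rich nor pvalb2-rich, but within their range of 507 to 56836. Mitochondrial transcripts took 18.7% of UMIs in well 197, against 4.49% in well 315, 3.84% in well 253 and a median of 4.47% in those 524 wells. The part of this share in the values of well 197 was not tested.

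The 3 wells are a small share of their gate. The myl13-rich wells were 0 of 143 kept mCherry+ wells and 2 of 151 kept mCherry- wells on plate 1, the second a share of 1.32% (exact 95% binomial interval 0.161 to 4.70). On plate 2 they were 0 of 123 kept mCherry+ wells and 1 of 117 kept mCherry- wells, the second a share of 0.855% (0.0216 to 4.67). By the limit of 3 counts of the total, the counts of 0 allow shares of up to 2.098% on plate 1 and 2.44% on plate 2, and the upper ends of their exact intervals are 2.55% and 2.95%, so a share as low as that of the mCherry- wells was not detectable at this number of mCherry+ wells. Intervals and such limits cover counting error only.

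Summed over kept wells, myl13 had 56 and 53 UMIs in mCherry+ wells of plates 1 and 2, against 1509 and 1400 in mCherry- wells. As a level this was 29.9 and 27.1 CPM in mCherry+ wells, against 1096 and 1423 CPM in mCherry- wells. The troponin I gene tnni1c had 4.27 and 4.61 CPM in mCherry+ wells, against 108 and 189 CPM in mCherry- wells. Both genes were lower in mCherry+ sums on each plate, and both mCherry+ sums lay below both mCherry- sums. The troponin T gene tnnt2e had 2.67 and 2.56 CPM in mCherry+ wells, against 82.0 and 125 CPM in mCherry- wells. The myozenin gene myoz2 had 1 UMI on each plate in mCherry+ wells, against 20 and 54.3 UMIs in mCherry- wells. The log2 ratio of the summed 4 genes, mCherry+ over mCherry-, was -5.12 on plate 1 and -5.69 on plate 2, a mean of -5.40 ± 0.40 (SD, n = 2 plates). In such a sum, fewer cells of a type and less RNA per cell cannot be told apart. The wells give separate values, and each was meant to hold a single sorted cell. Whether each did was not tested.

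Without the 3 wells the difference was gone. The mean log2 ratio was then 0.33, but the plates ran in opposite directions. On plate 1 the 4 genes then had 37.4 CPM in mCherry+ wells, against 17.3 CPM in mCherry- wells. On plate 2 they had 34.8 CPM in mCherry+ wells, against 47.2 CPM in mCherry- wells. In kept wells that were neither myl13-rich nor pvalb2-rich, the 4 genes had 40.9 and 45.5 CPM in mCherry+ wells of plates 1 and 2, against 17.3 and 47.2 CPM in mCherry- wells. Of single genes, myl13 had 32.6 and 34.0 CPM in mCherry+ wells, against 14.3 and 33.5 CPM in mCherry- wells, with overlapping ranges. The name of the set, muscle genes of mCherry- wells, therefore holds for 3 of the 268 kept mCherry- wells and not for the gate.

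**Figure D2:**
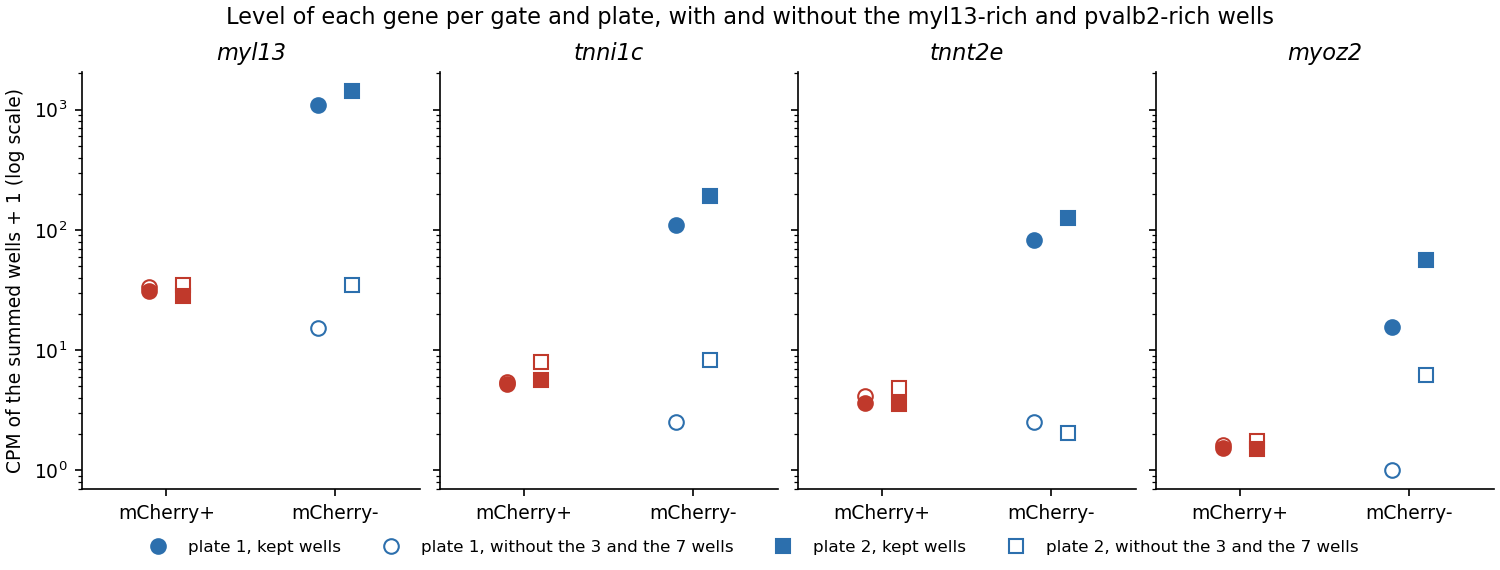
Level of each of the 4 genes in the summed wells (vertical axis, CPM + 1 on a log scale) by gate, with plates as circles and squares. Filled symbols are all kept wells, open symbols leave out the 3 myl13-rich and the 7 pvalb2-rich wells. For myl13 the filled mCherry- symbols stand at 1096 and 1423 CPM and the open ones at 14.3 and 33.5 CPM, where the mCherry+ symbols also lie.

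The few UMIs outside the 3 wells were spread thinly. Among the 758 wells that were neither myl13-rich nor pvalb2-rich, 160 had at least 1 UMI of the 4 genes and 119 had exactly 1. Of the kept ones, 29.3% and 32.8% of mCherry+ wells on plates 1 and 2 had a UMI, at median depths of 9374 and 10489 UMIs, against 14.1% and 26.7% of mCherry- wells, at 8497 and 7930 UMIs. Whether these single UMIs are expression or free RNA was not tested. The largest values after the 3 wells were 5 UMIs, in well 20 of plate 1 and well 3 of plate 2, both mCherry+. By CPM the next was the mCherry- well 280 of plate 1 with 3766 CPM, which were 2 UMIs of 531. The same well number on the other plate held 0 UMIs of the 4 genes for each of wells 197, 315 and 253.

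All 4 genes were found together only where they were abundant. At 1 UMI per gene, 170 of the 768 wells had at least 1 of the 4 genes, 150 of them exactly 1 gene, 17 exactly 2, 0 exactly 3 and 3 all 4. At 10 UMIs per gene only the 3 myl13-rich wells remained, 2 of them with all 4 genes, since myoz2 had 8 UMIs in well 197. Pearson correlations of log2(CPM + 50) between myl13 and tnni1c were 0.60 over the 294 kept wells of plate 1 and 0.45 over the 240 of plate 2. Without the myl13-rich wells they were 0.08 and 0.06. Of the 6 pairs, tnnt2e and myoz2 still gave 0.73 on plate 1 without these wells, but -0.02 on plate 2. The value of 0.73 rests on 1 well, since myoz2 had only 1 UMI outside the myl13-rich wells of plate 1. The wells of a plate share a library and differ in depth, and at counts this low a weak correlation is no finding.

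The make-up of the 4-gene sum was alike in outline and differed in detail between the 3 wells. The light chain myl13 made up 82.1% of the UMIs of the 4 genes in well 197, 85.5% in well 315 and 79.6% in well 253. The troponin I gene tnni1c made up 5.85% (4.15 to 7.97) in well 197, against 9.61% (7.96 to 11.5) in well 315 and 10.4% (9.01 to 12.0) in well 253. The troponin T gene tnnt2e ran in another order, with 10.9% (8.58 to 13.6) in well 197, 3.70% (2.68 to 4.97) in well 315 and 7.10% (5.93 to 8.42) in well 253. These exact 95% binomial intervals do not overlap for tnnt2e, while for tnni1c only those of wells 197 and 253 stand apart. The myozenin gene myoz2 made up 1.26%, 1.06% and 2.85% in wells 197, 315 and 253. In the other 765 wells pooled, the shares were 77.4% for myl13, 11.9% for tnni1c, 7.23% for tnnt2e and 3.40% for myoz2, and each interval there overlapped that of the myl13-rich wells pooled.

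**Figure D3:**
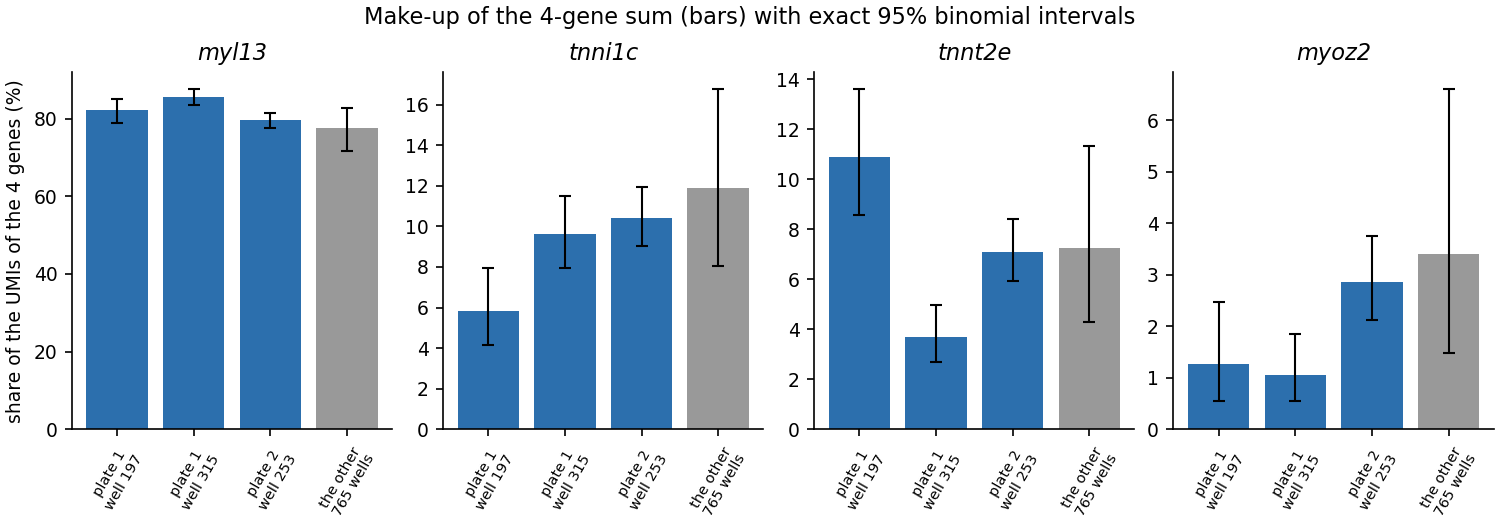
Share of each gene among the UMIs of the 4 genes (vertical axes, percent, from 0, with a scale of their own in each panel) in the 3 myl13-rich wells, all mCherry-, and in the other 765 wells pooled. Error bars are exact 95% binomial intervals. The bars of myl13 lie between 77.4% and 85.5%, and those of tnnt2e differ the most clearly between wells, from 3.70% in well 315 to 10.9% in well 197.

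The wells with the most UMIs of pvalb2 were other wells, in the other gate. At 1000 UMIs of pvalb2, a threshold set after the values were seen, 7 wells were pvalb2-rich, all mCherry+. They were wells 19, 40 and 89 of plate 1, with 5555, 8764 and 4298 UMIs of pvalb2, and wells 33, 95, 117 and 134 of plate 2, with 6143, 8928, 7064 and 4444. The next well, the mCherry- well 379 of plate 2, had 71.6 UMIs of pvalb2 among 2097 UMIs. By level it stood at 34152 CPM, above the 32540 CPM of the pvalb2-rich well 134 of plate 2. The class thus follows UMIs, and by CPM high pvalb2 was not confined to mCherry+ wells. On plate 1 the pvalb2-rich share of kept mCherry+ wells was 2.098% (exact 95% binomial interval 0.435 to 6.008). On plate 2 it was 3.252% (0.893 to 8.117). The counts of 0 among 151 and 117 kept mCherry- wells have upper interval ends of 2.413% and 3.104%. The intervals of the gates overlap on each plate. Overlap is not a test and none was run on these shares, so a lower share in the mCherry- gate is not established. The pvalb2-rich wells were 76221 to 214558 UMIs deep, so a gene had more chance to be seen in them than in the myl13-rich wells.

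Despite this depth the 7 wells held only 1 to 4 UMIs of the 4 genes each. Together these were 14 of myl13, 1 of tnni1c, 0 of tnnt2e and 0 of myoz2. The pooled level of the 4 genes was 43457 CPM in the myl13-rich wells, 15.5 CPM in the pvalb2-rich wells and 42.4 CPM in the other 758 wells. For tnnt2e the pooled level in the myl13-rich wells was at least 933-fold higher than in the pvalb2-rich wells, and for myoz2 at least 278-fold higher, both set against a floor of 3 UMIs over the 7 wells. The level in the pvalb2-rich wells was thus no higher than the level of the wells around them.

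The converse held for pvalb2. Its pooled level was 400 CPM in the myl13-rich wells, with an exact 95% Poisson interval of 273 to 563, against 46824 CPM in the pvalb2-rich wells and 520 CPM in the other 758 wells. The 4 genes made up 99.4%, 99.3% and 98.8% of the UMIs of pvalb2 and the 4 genes in wells 197, 315 and 253. In the 7 pvalb2-rich wells they made up at most 0.0930%. The spread outside the peaks was alike, since 5.91% of the UMIs of the 4 genes and 5.63% of those of pvalb2 lay in the other 758 wells. No well was rich in both, at the unlike thresholds of 10 UMIs for the 4 genes and 1000 UMIs for pvalb2. At 10 UMIs per gene, 1 well, well 253 of plate 2, held a member and pvalb2. At 1 UMI per gene, 162 of the 170 wells with any of the 4 genes also held pvalb2. The gene pvalb2 was seen in 617 of the 768 wells.

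**Figure D4:**
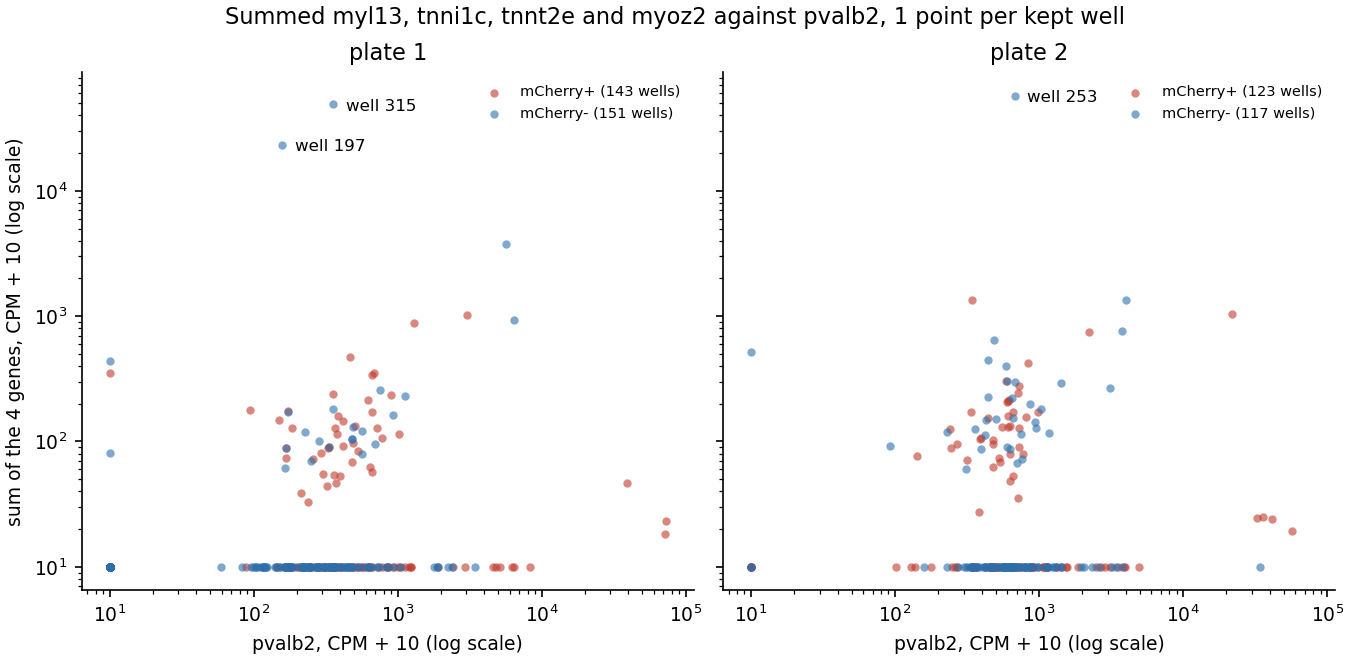
Summed myl13, tnni1c, tnnt2e and myoz2 (vertical axis) against pvalb2 (horizontal axis), both as CPM + 10 on log scales, 1 point per kept well, for plate 1 (left) and plate 2 (right). The 3 labelled mCherry- wells stand at 23372 to 57409 CPM of the 4 genes at the pvalb2 level of ordinary wells, and the 7 mCherry+ wells at the right, rich in pvalb2, stand at 8.19 to 36.5 CPM of the 4 genes. Shallow wells lie high on an axis with few UMIs, among them the mCherry- well 379 of plate 2, also at the right with 34152 CPM of pvalb2.

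The split was as clear at equal depth. With each well thinned to 2000 UMIs, the myl13-rich wells kept 44, 80 and 110 UMIs of the 4 genes and at most 1 of pvalb2. The pvalb2-rich wells, thinned alike, kept 66 to 152 UMIs of pvalb2 and at most 1 of the 4 genes. Of the remaining wells, a mCherry- well of plate 2 kept 71 UMIs of pvalb2, within that range. At equal depth pvalb2 thus did not separate the gates fully. Thinning left out 20 and 17 kept mCherry+ wells and 11 and 16 kept mCherry- wells on plates 1 and 2 that were shallower.

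The genes most like the 4-gene sum across wells included 5 from the muscle lists, tnnt2c, myl4, TNNC1, myh7bb and pvalb4. Likeness was Pearson's r of log2(CPM + 50) over kept wells, ranked by the lower of the plates, among 8808 genes. The 3 myl13-rich wells were included, so genes that are high in those wells rank high. Without them even the r of myl13 with tnni1c fell to near 0, as given above. The 10 genes at the top were tnnt2c, HHATL, myl4, TNNC1, myh7bb, lemd1, MYBPC3, si:dkey-181m9.5, pvalb4 and ENSDARG00000090343, with a lower r between 0.37 and 0.46. The 3 genes most like each member were among these 10, apart from tnni1c itself for tnnt2e, with HHATL among them for each of the 4. Below them, pvalb2 ranked 826 among the 8808 genes, with r of 0.16 on plate 1 and 0.05 on plate 2. Both values were weak but not negative, so this ranking does not show that pvalb2 and the 4 genes exclude each other.

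Other troponin subunits stood in the same wells. TNNC1 (ENSDARG00000037539), a troponin C of slow and heart muscle in mammals, had 224, 137 and 240 UMIs in wells 197, 315 and 253, against 0 to 11 in the pvalb2-rich wells. The troponin T paralog tnnt2c had 17, 98.2 and 95.1 UMIs in the myl13-rich wells, against 0 to 2. Its relative tnnt2d had 135, 103 and 183 UMIs, against 0 or 1 in each pvalb2-rich well. So 3 troponin T genes of the same family, tnnt2c, tnnt2d and tnnt2e, stood side by side in each of the 3 wells.

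The myosin side showed the same split. The light chain myl10 had 507, 994 and 1659 UMIs in wells 197, 315 and 253, against 4 to 9 in the pvalb2-rich wells. Its UMIs exceeded those of myl13 in wells 315 and 253, where myl13 had 970.3 and 1368. The heavy chain myh7bb had 17, 10 and 24.1 UMIs, against 0 or 1. MYBPC3, a myosin-binding protein C, had 73.6, 52.3 and 101 UMIs, against 0 to 2. The light chain myl4 had 0, 11 and 39.2 UMIs, against 0 or 1, and so was not seen in well 197. MYBPC1, a myosin-binding protein C of slow muscle in mammals, was seen only in well 253 among these wells, with 60.4 UMIs.

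The fast partners of these proteins stood in the pvalb2-rich wells. The fast light chain MYL1 (ENSDARG00000017441) had 8, 9 and 49.3 UMIs in wells 197, 315 and 253, against 2817 to 8336 in the pvalb2-rich wells. The fast troponin I gene TNNI2 (ENSDARG00000029069) had 3, 98.2 and 2 UMIs, against 1115 to 2684. The fast troponin T gene TNNT3 (ENSDARG00000068457) had 0, 80.8 and 8 UMIs, against 1172 to 3220. In both troponins it was well 315 that stood above the other myl13-rich wells. The fast troponin C gene TNNC2 (ENSDARG00000070835) was less exclusive, with 19, 91 and 132 UMIs against 2217 to 5887.

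The myozenins divided between the wells by paralog. The gene tables give the symbol MYOZ2 to myoz2 (ENSDARG00000037266) and to a second gene, ENSDARG00000012311. The second one had 0, 2 and 1 UMIs in wells 197, 315 and 253, against 13 to 69.6 in the pvalb2-rich wells, where myoz2 had 0. MYOZ1 (ENSDARG00000056209) and myoz1b (ENSDARG00000071445) had 0 UMIs in the 3 myl13-rich wells, against 44.2 to 96.1 and 91 to 264 in the pvalb2-rich wells. Counts of paralogs rest on how the authors' alignment divided similar reads, which was not tested.

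Parvalbumins divided in another way. Unlike pvalb2, its paralog pvalb4 had 429, 221 and 844 UMIs in wells 197, 315 and 253, against 5 to 140 in the pvalb2-rich wells. As a pooled level it was 41.5-fold higher in the myl13-rich wells. In contrast pvalb1 had 1, 6 and 8 UMIs in the myl13-rich wells, against 2559 to 6103. A parvalbumin was thus abundant in both kinds of wells, but not the same one.

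**Figure D5:**
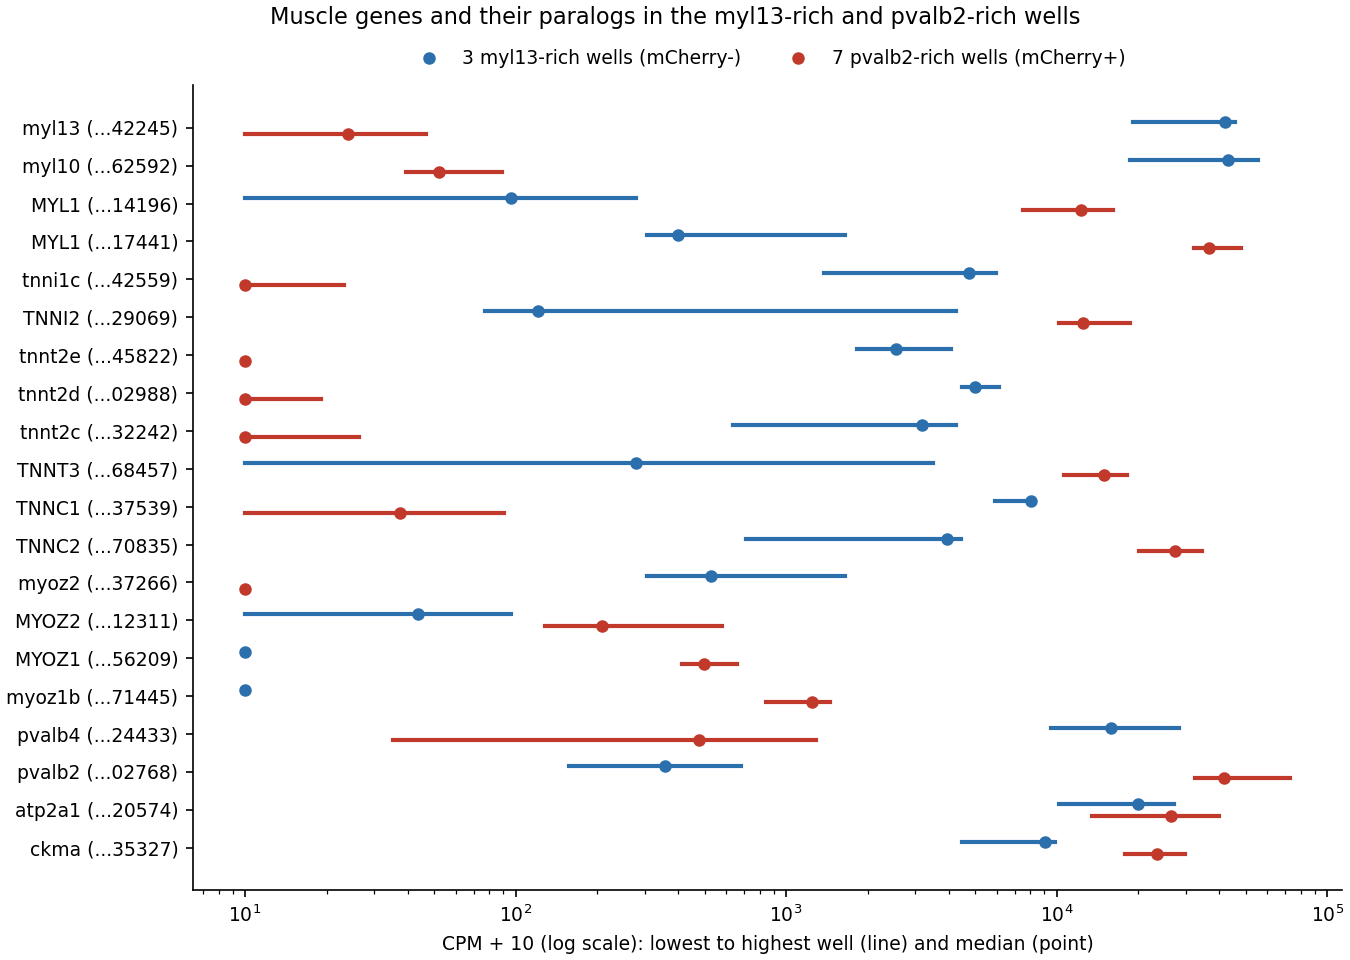
Levels of 20 muscle genes (horizontal axis, CPM + 10 on a log scale) in the 3 myl13-rich mCherry- wells (blue, upper of each pair) and the 7 pvalb2-rich mCherry+ wells (red). Lines run from the lowest to the highest well and points are medians, and the digits after a symbol end its Ensembl ID. For myl13, myl10, the troponin genes tnni1c, tnnt2e, tnnt2d, tnnt2c and TNNC1, myoz2 and pvalb4 the blue lines lie right of the red ones, and for MYL1, TNNI2, TNNT3, TNNC2, MYOZ2, MYOZ1, myoz1b, pvalb2 and ckma left of them.

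Some muscle genes were shared by both kinds of wells. The calcium pump gene atp2a1 had 276, 463 and 812 UMIs in wells 197, 315 and 253, and its CPM range of 10189 to 27152 overlapped that of the pvalb2-rich wells, 13515 to 39811. The creatine kinase gene ckma had 121, 228 and 271 UMIs, and its CPM was 4457 to 9847, below the 17959 to 29827 of the pvalb2-rich wells. The giant filament gene TTN (ENSDARG00000000563) had 48.3, 149 and 89.0 UMIs and also overlapped in CPM. The skeletal actin gene ACTA1 (ENSDARG00000036371) varied widely among the 3 wells, with 9, 278 and 739 UMIs. A second gene with the symbol ACTA1 (ENSDARG00000055618) was not shared in this way. It had 3, 7 and 30.1 UMIs, against 852 to 3602 in the pvalb2-rich wells, which all stood above in CPM.

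Counted over the lists, 2645 genes of the tables had at least 20 UMIs in the 3 and 7 wells together. Of all these, 9.79% had every myl13-rich well above every pvalb2-rich well in CPM, and 6.69% the reverse. Of the 16 slow muscle genes with such counts besides the 4 genes, 7 had the myl13-rich wells above and 3 the pvalb2-rich wells. Of the 31 fast muscle genes, pvalb2 included, 2 had the myl13-rich wells above, namely pvalb4 and RYR1 (ENSDARG00000011422), and 16 the pvalb2-rich wells. This RYR1 gene is on both lists and is counted in each. The wells were picked by values of muscle genes, so these counts are a description. The slow list did not move as 1 block: RYR3, a calcium release channel, and MYOM2, an M-band protein, had 0 UMIs in the 3 myl13-rich wells, against 31.1 to 251 and 106 to 320 in the pvalb2-rich wells.

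Among 24 Z-disc and thin filament genes with such counts, 3 had the myl13-rich wells above and 6 the pvalb2-rich wells. The actin genes actc1a and ACTC1 were among the first, ACTC1 with 22.1, 115 and 76.7 UMIs against 1 to 42.2. Of 10 myogenic regulators, 3 had the myl13-rich wells above and 0 the reverse. They were MYOD1, a muscle-determining transcription factor, with 6, 15 and 12 UMIs against 1 to 17, MEF2D with 3, 6 and 3 against 3 to 18, and PROX1 with 5, 3 and 11 against 0 to 4. The pvalb2-rich wells are deeper, so equal UMIs are a lower CPM there. SOX6, a repressor of slow fiber genes in zebrafish, had 1, 2 and 0 UMIs in the myl13-rich wells, against 4 to 34.1, but the ranges overlapped in CPM (0 to 86.3 against 52.5 to 311). Calcineurin and its partners were scarce, and of 4 such genes with enough UMIs 1, PPP3CC, had the myl13-rich wells above.

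Markers of the sorted cell type were near 0 in the 3 wells. The 23 macrophage genes together took 0.0234% to 0.0431% of UMIs in the myl13-rich wells and 0.0115% to 0.611% in the pvalb2-rich wells. In the other kept wells the median was 0.592%, with a range of 0% to 4.50%. A share this low was thus also found outside the 3 wells. The 3 wells had 25 UMIs of the list in all, and 13 of its 23 genes, among them marco, irf8 and ctsl.1, were at 0 in each of them. Of the reporter's own gene, MPEG1 (ENSDARG00000055290), they held 1, 0 and 0 UMIs in wells 197, 315 and 253. The cell type label, macrophages, is thus not borne out by its markers in these wells, whereas slow list genes, the 4 genes included, took 6.12% to 15.0% of their UMIs. Fast list genes, pvalb4 and atp2a1 among them, took 4.28% to 10.0% there, against a median of 0.661% in the other kept wells. The 4 genes picked these wells, so their part of the slow share follows from the choice.

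Markers of other cell types also had few UMIs. Of 13 heart muscle genes, 11 were at 0 in the 3 wells, MYL7, nppa and nppb among them, and the exceptions were myl4 and 6 UMIs of a TNNI1 gene in well 253. TNNC1, MYBPC3 and ACTC1, which the 3 wells held as given above, are not on the heart list and are not covered by this count. Smooth muscle genes had 3 UMIs in the 3 wells together, neuron genes 0, epithelium genes 7, erythroid genes 27, fibroblast genes 32 and neutrophil genes 38. By median share of UMIs, heart muscle genes (0.0475% against 0%) and fibroblast genes (0.0435% against 0.00824%) were higher than in the other kept wells. The smooth muscle, neutrophil, erythroid and epithelium lists were lower, and the neuron list was at 0% in both. The part of these cell types in the levels of the 4 genes was not tested.

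In the comparison of the gates across all genes, edgeR's quasi-likelihood test on the 4 sums of gate and plate called 470 of 9904 genes at a Benjamini-Hochberg adjusted p of 0.05, or 4.75%. Of all genes tested 2.42% were higher in mCherry+ and 2.32% lower. Besides the 4 genes, 18 slow list genes were tested, of which 6 fell in mCherry+ wells and 4 rose, with a median log2 fold change of -0.01, against 0.03 over all genes. Those that fell were myl10, tnnt2d, tnnt2c, TNNC1, myh7bb and tpm3. Those that rose were MYOZ2 (ENSDARG00000012311), RYR1 (ENSDARG00000023797), RYR3 and MYOM2. Of 30 fast list genes besides pvalb2, 23 rose and 1, pvalb4, fell, with a median of 3.36. The lists overlap, and RYR1 (ENSDARG00000023797) is counted in both. Lists of other cell types moved in the same comparison: 5 of 7 neutrophil genes fell (median -2.18), while 5 of 7 fibroblast genes (median 3.00) and 3 of 8 epithelium genes (median 1.92) rose. Their part in the values of the muscle lists was not tested. The lists were chosen with the difference between the gates known, and the slow list holds genes of the same wells as the members.

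The values of 3 of these genes show the range. The level of myl10 was 53.9 and 62.0 CPM in mCherry+ wells of plates 1 and 2, against 1135 and 1749 CPM in mCherry- wells, a log2 fold change of -4.65 ± 0.33 (SE, adjusted p = 0.0001003 by edgeR). The level of tnnt2c was 4.80 and 3.07 CPM in mCherry+ wells, against 85.8 and 99.6 CPM in mCherry- wells, a log2 fold change of -4.59 ± 0.48 (SE, adjusted p = 0.00107 by edgeR). In both genes the mCherry+ sums of both plates lay below both mCherry- sums. Of their kept UMIs, 90.2% and 90.9% lay in the 3 myl13-rich wells. Both p-values thus rest on 3 wells and do not measure the spread between cells. For tpm3, a tropomyosin that other kept wells also held at 272 CPM, the log2 fold change was smaller, -1.72 ± 0.34 (SE, adjusted p = 0.0233 by edgeR).

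The calls of slow list genes that fell were lost without the 3 wells, and tnnt2c and myh7bb then had too few UMIs to be tested. Without them 0 slow list genes fell and 7 rose, beside 2.39% and 3.5% of all genes tested, and pvalb4 turned to a log2 fold change of 3.05 (adjusted p = 0.00450 by edgeR), higher in mCherry+. Among the 7 were RYR1 (ENSDARG00000023797) and CACNA1S (ENSDARG00000029457 and ENSDARG00000042552). These are on the fast list too, since paralogs share their symbols. By share, 91.9% of the kept UMIs of tnnt2d, 90.2% of those of myl10, 92.3% of those of TNNC1 and 74.5% of those of pvalb4 were in the 3 wells. The share was lower for tpm3, 33.4%, and without the 3 wells its log2 fold change was -0.74 (adjusted p = 0.274 by edgeR). The call of tpm3 was also lost without the pvalb2-rich wells, at -1.56, and with no block for the plate, at -1.75. Without the 7 pvalb2-rich wells, 0 of the 25 fast list genes then tested besides pvalb2 rose, beside 0.769% of all genes. This follows largely from how the wells were picked, by a fast muscle gene. In the same fit, which kept the 3 myl13-rich wells, 4 of the 25 fell, beside 109 of all 9496 genes. The median log2 fold change of the 25 was -0.83, against 0.03 over all genes. Without both kinds of wells, 36 of 9354 genes were called, 0.385%, with no gene of either list among them and 1337 genes at an unadjusted p under 0.05. Besides the 4 genes and pvalb2, 9 slow and 20 fast list genes were then tested.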

How the data were processed

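Single EGFP+ cells of both gates were sorted into 2 plates of 384 wells for SORT-seq. The authors' notes name BWA, GRCz11 and Seurat. The deposited values are estimated counts, UMIs per gene and well, which match within 0.005 a correction for collisions of 6-base tags and are therefore not always whole. The correction added 3.85% of UMIs on plate 1 and 7.00% on plate 2. ERCC spike-ins, 1.13% of UMIs, were set aside.

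Wells with at least 500 UMIs and 200 genes were kept, which left 534 wells holding between 507 and 214558 UMIs. Members were read by ID in all 768 wells. Names came from a gene table, which named 17425 of 22342 IDs, some of them in human style and shared by paralogs. The comparison of the gates (mCherry+ over mCherry-) used kept wells summed per gate and plate, rounded, with edgeR 4.0.16 (filterByExpr, TMM, plate as block, quasi-likelihood F test, Benjamini-Hochberg threshold 0.05). Same-numbered sums come from the same plate, as the labels state, so the plate is the block. In simulated data with known changes, log2 fold changes of 5 were recovered. The simulation changed whole sums alike on both plates, so it says nothing about changes carried by single wells. Genes were named by rule: the 4 members, pvalb2, list genes past the threshold, close paralogs, and the 10 genes most like the summed members (at least 50 UMIs, in at least 5 wells), with the 3 most like each member. ACTA1 (ENSDARG00000036371), RYR1 (ENSDARG00000011422), MYBPC1, actc1a, ACTC1, PPP3CC, MYOD1, MEF2D, PROX1, CACNA1S and the markers at 0 lie outside the rule and were named after their values were seen. Members and all 14 lists were chosen with earlier results of these data known. Of 258 list symbols, those that matched no ID were not used. Alternatives were DESeq2 1.42.0, other well minimums, no filter, no TMM, no block, single wells left out and thinning to 2000 UMIs. Wells rich in the members or in pvalb2 were left out as alternatives added after seeing the data. Promoter motifs were not analysed here. Other versions were not given in the sources used here.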

Additional observations from a re-analysis of the deposited data

How the results depend on the processing

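The log2 ratio of the summed 4 genes, mCherry+ over mCherry-, was -5.40 and stayed between -5.46 and -5.15 with all wells, other well minimums, TMM, DESeq2 size factors, prior counts of 2 and 0.5, or without the pvalb2-rich wells. It was -5.69 without replicate 1 (plate 1) and -5.12 without replicate 2 (plate 2). It moved to -2.21 without the largest well of each sum and to 0.33 without the myl13-rich wells, by construction, since so few wells hold the UMIs.

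The count of genes called between the gates, 470, became 924 with no scaling beyond library size, 1102 with no filter, 57 with no replicate block, 182 without the pvalb2-rich wells and 36 without both kinds of wells. Slow list genes that fell, 6, became 0 without the largest well of each sum, without the myl13-rich wells or without both kinds. Fast list genes that rose, 23, became 4 with no replicate block and 0 without the pvalb2-rich wells or without both kinds. The counts of 0 without these wells follow largely from how the wells were picked, by muscle genes. Without replicate 1 or 2 only fold changes could be had, with no test. Without the myl13-rich wells the log2 fold changes of myl13 (0.32), myl10 (0.043), TNNC1 (1.18) and pvalb4 (3.05) changed sign, and without both kinds that of myl13 was 0.32. Of these only pvalb4 was called in the new direction, so the others show no difference. Without the pvalb2-rich wells the log2 fold changes of RYR1 (-1.25), MYOZ1 (-0.18), RYR3 (-1.90) and MYOM2 (-0.068) changed sign. Without both kinds those of MYOZ1 (-0.25), myoz1b (-0.035), RYR3 (-1.97) and MYOM2 (-0.14) did, and none of these was called.

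At a threshold of 3 UMIs, 18 kept wells qualified, of which 16.7% held all 4 genes, against 100% at 10 and 30 UMIs. The median share of the 4 genes among their UMIs and those of pvalb2 was 99.3% at 10 UMIs and 31.6% at 3. In wells thinned to 2000 UMIs, all 4 genes were seen in 66.7% of the wells at the threshold, and the median share was 100%. Without replicate 1 or 2 all 4 genes stood in 100% of such wells, and the share was 98.8% without replicate 1 and 99.3% without replicate 2. With 3 wells, 2 plates and no further libraries, no statement reaches beyond these cells.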
